A study of Homo sapiens with 8 samples.

Results

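The MYC, MAX and MXD network is a set of 10 genes that code for transcription factors of the basic helix-loop-helix zipper type. They are MYC, MYCN, MAX, MXD1, MXD3, MXD4, MXI1, MNT, MLX and MGA. The rule that picks them is their symbol and uses no measured value, and every array probe that carries one of these symbols was taken, but the family was proposed with earlier results of these data known. This gave 21 probes of the 50599 on the array. Of these, 20 probes of 9 genes could be tested. The remaining gene, MYCN, has 1 probe, which was not well above background on any of the 8 arrays, so it is described by that bound alone.

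RNA came from HCT-116 cells, an epithelial line from a human colorectal carcinoma, in 4 groups with 2 arrays each. WT cells were the untreated parental line, and the sources do not say that they received the drug's solvent. WT+NU6102 cells were the same line exposed for 24 h to 20 µM NU6102, a purine compound that inhibits CDK1 and CDK2. CDK2-/- cells were a purchased knockout derivative and received no drug. R50 cells descended from the parental line, were grown from the start in 50 µM NU6102 and were kept in it, so R50 and WT+NU6102 differ in dose, in duration and in selection. Every group shares the HCT-116 background and the same serum-containing medium, and whether the CDK2-/- and R50 lines are single clones is not stated in the sources used here. The design asks how acute inhibition, gene loss and acquired resistance each alter transcript levels, and the network is followed through that design here.

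Each array measured Cy3-labelled RNA with 60-base probes. A level below is the log2 of the deposited signal less the 75th percentile of the same array, and a log2 fold change is a difference between group means of such levels, given as value ± standard error with 2 arrays per group. Levels are compared between groups for the same probe. An exception is the sum over markers given below, which sets different probes side by side and is only a rough guide. A probe was called when its limma adjusted p was under 0.05 over all 28677 tested probes, and a gene is represented by its brightest tested probe unless another is named. The scanner software rated 32376 to 36206 spots of an array as well above background, and across probes, which are not independent replicates, the duplicates of a group correlated with r from 0.9937 to 0.9958. The arrays of WT and WT+NU6102 were on slide 2 and those of CDK2-/- and R50 on slide 1. The treated cells can therefore be compared with WT, and R50 with CDK2-/-, on the same slide, whereas any other comparison also crosses slides and the slide cannot be told apart from the group. The 3 comparisons against WT share the WT arrays, so their values are set side by side without a measure of likeness. The CDK2 probe read 0.78 ± 0.04 log2 units lower in CDK2-/- than in WT (adjusted p = 0.000271) but stayed well above background, and the sources used here do not place it inside or outside the deleted part. Of 8 epithelial markers, 6 were well above background on both arrays of every group, while CEACAM5 and VIL1 were on none. Of 11 leukocyte, fibroblast and endothelial markers, 5 to 7 per group were well above background, and COL1A2 and COL3A1 were in no group. The summed signal of these 11 markers was between 0.826 and 1.27 times the array's 75th percentile, against 466 to 733 times for the epithelial markers. Among them the collagen gene COL1A1 differed from WT by -0.75 with NU6102, 1.22 in CDK2-/- and 0.66 in R50, and the part of such differences in the values below was not tested. In such bulk RNA, fewer cells with a transcript and less of it per cell cannot be told apart.

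MAX is the obligate partner of the family. MYC binds DNA only as a dimer with MAX, at the E-box motif CACGTG, and there activates genes for ribosome production, metabolism and growth. MXD1, MXD3, MXD4, MXI1 and MNT also pair with MAX, occupy the same motif and recruit SIN3 and histone deacetylases, so they act as antagonists of MYC. MLX pairs with MNT and some MXD proteins and with the glucose-sensing factors MLXIP (MondoA) and MLXIPL (ChREBP), while MGA carries MAX into a Polycomb complex, PRC1.6, that silences germline genes. In colorectal cells MYC is a main output of Wnt signalling.

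The sequences that the network reads and that stand for it on the array are shown next. The first set is of 3 probes that lie in coding sequence and report members that moved, printed 5′ to 3′ with no part marked. The files place the MAX probe at chr14:65560459-65560518 of hg19 on the minus strand, where it reads the region that codes for DNA contact. The MXI1 probe, at chr10:111985981-111986040 on the plus strand, is listed for transcript variant 1 and covers its first coding part. The MLX probe is listed from chr17:40721610-40722044 on the plus strand, a span of 435 bases for 60 bases of probe, so it crosses an intron. Exon and UTR annotation of hg19 was not used here.
MAX: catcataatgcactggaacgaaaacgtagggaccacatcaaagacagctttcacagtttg
MXI1: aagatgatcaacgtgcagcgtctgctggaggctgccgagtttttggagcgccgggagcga
MLX: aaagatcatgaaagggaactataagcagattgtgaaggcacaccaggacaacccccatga

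The second set is of promoters in which a member or a classical target holds the E-box. In RefSeq promoters of GRCh38.p14, each running from 250 bases before to 50 after a gene's start, CACGTG was searched as written. It reads the same on both strands, and no other motif was searched. It was present in 8.77% of 27305 genes. Among the 9 members with an entry, 3 held it, namely MXD4, MNT and MLX. Of the gene lists read below, it was held by 9 of 22 matched MYC-activated genes of ribosome biogenesis (40.9%) and 11 of 21 of metabolism and growth (52.4%). It was as frequent in lists of other kinds, with 4 of 10 genes repressed by MYC (40.0%), 5 of 11 germline genes under PRC1.6 (45.5%) and 2 of 3 targets of MLX (66.7%). It was held by 2 of 8 MYC cofactors, 1 of 9 regulators of MYC stability, 1 of 10 partners of MGA, none of 9 corepressor genes and none of 3 further partners of the network. The 250 bases upstream of 4 starts are printed with the motif in capitals, since MNT, MLX and MXD4 differed between groups and ODC1, which codes for the first enzyme of polyamine synthesis, rose most of all MYC-activated genes tested here. They lie at chr17:2401061-2401310 (MNT, minus strand), chr17:42566850-42567099 (MLX, plus strand), chr4:2262110-2262359 (MXD4, minus strand) and chr2:10448013-10448262 (ODC1, minus strand). A match is a description of these letters and not evidence of binding.
MNT: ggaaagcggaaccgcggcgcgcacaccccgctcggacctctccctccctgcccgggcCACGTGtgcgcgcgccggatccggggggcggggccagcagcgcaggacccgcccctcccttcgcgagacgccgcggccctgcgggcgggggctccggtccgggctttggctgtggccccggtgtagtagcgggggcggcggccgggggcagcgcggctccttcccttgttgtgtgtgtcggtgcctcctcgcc
MLX: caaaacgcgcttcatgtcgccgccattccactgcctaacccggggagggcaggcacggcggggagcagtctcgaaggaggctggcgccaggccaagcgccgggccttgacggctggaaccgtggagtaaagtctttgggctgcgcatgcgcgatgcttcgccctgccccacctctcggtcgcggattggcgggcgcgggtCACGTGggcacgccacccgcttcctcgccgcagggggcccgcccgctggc
MXD4: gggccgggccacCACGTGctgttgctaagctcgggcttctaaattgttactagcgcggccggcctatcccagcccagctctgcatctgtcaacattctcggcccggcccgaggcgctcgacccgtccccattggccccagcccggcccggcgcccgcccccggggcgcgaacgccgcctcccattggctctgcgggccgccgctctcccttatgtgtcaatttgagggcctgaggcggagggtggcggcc
ODC1: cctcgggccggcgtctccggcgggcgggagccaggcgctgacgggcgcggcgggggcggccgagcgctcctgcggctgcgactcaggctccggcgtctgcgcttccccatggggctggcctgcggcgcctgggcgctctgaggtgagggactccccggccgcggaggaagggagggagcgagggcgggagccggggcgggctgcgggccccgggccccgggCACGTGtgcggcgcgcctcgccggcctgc

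With NU6102, MYC changed little while its partners and antagonists moved in different directions. MAX and MLX rose, and the repressors MXI1, MXD3, MNT and MXD4 fell, although other probes of MNT, MXD3 and MXD4 did not pass the test. Of the 9 genes tested, 3 were called higher and 4 lower in WT+NU6102 than in WT. Over all 15317 tested genes the shares were 28.9% and 24.2%, so that 53.1% of all genes were called in this comparison and the members' count is not far from that background. In CDK2-/- cells 4 members were higher and 1 was lower than in WT, against 19.2% and 16.7% of all genes, or 36.0% in either direction. In R50 cells 2 members were higher and none was lower than in WT, against 12.2% and 15.4% of all genes, or 27.6% in either direction. Between R50 and CDK2-/- 2 members were higher in R50 and 1 was lower, against 17.2% and 23.7%, or 40.9% in either direction. At the stricter threshold of the moderated F-test among the 4 groups (adjusted p under 0.001), 5 of 9 members passed, MAX, MNT, MXD3, MXD4 and MXI1, against 27.4% of all genes. That count is fragile, since it fell to 0 or 1 when any 1 of the 8 arrays was left out.

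**Figure D1:**
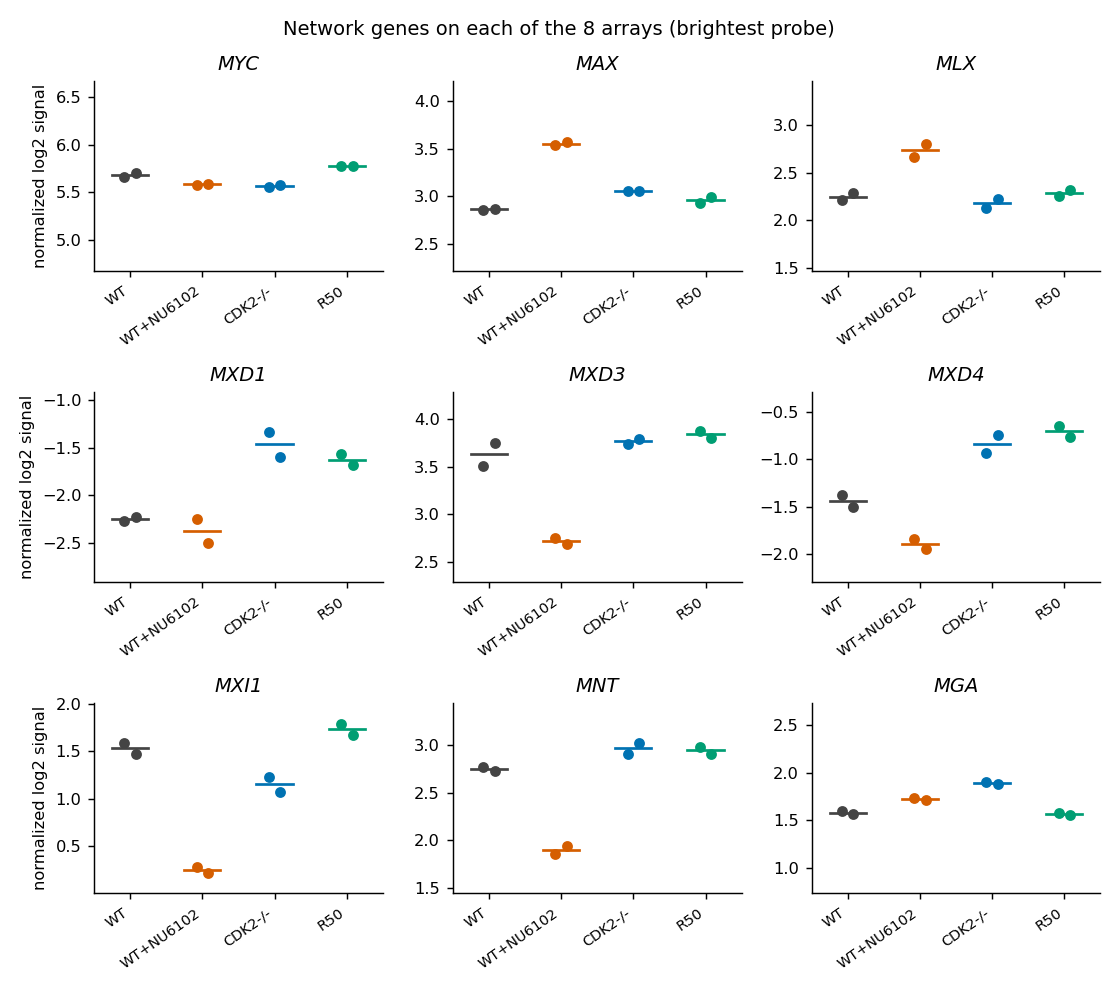
Normalized log2 signal (log2 signal less the array's 75th percentile) of the brightest probe of each of 9 network genes. Each point is 1 array, each line the mean of 2 arrays, and each panel spans 2 log2 units. WT+NU6102 sits below all other groups for MXI1, MXD3, MNT and MXD4 and above them for MAX and MLX, while all 8 arrays of MYC lie between 5.56 and 5.78.

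MYC, the activator at the centre of the network, had nearly the same level in all groups. Its levels were 5.66 and 5.71 in WT, 5.58 and 5.59 in WT+NU6102, 5.56 and 5.58 in CDK2-/- and 5.77 and 5.78 in R50. The duplicates differed by at most 0.04, and both treated and knockout arrays lay just under WT while both R50 arrays lay just above it. The log2 fold change against WT was -0.10 ± 0.04 with NU6102 (95% confidence interval -0.21 to 0.01, adjusted p = 0.12). It was -0.11 ± 0.04 in CDK2-/- (-0.22 to -0.0047, adjusted p = 0.106) and 0.09 ± 0.04 in R50 (-0.02 to 0.20, adjusted p = 0.19). None of these passed the test, and no interval reached beyond -0.22 or 0.20 log2 units. Other settings did call MYC. With NU6102 it passed after quantile normalization (-0.26, adjusted p = 0.00476) and with a trended prior (-0.10, adjusted p = 0.0484), and in CDK2-/- with the trended prior (-0.11, adjusted p = 0.0366). The mean of both MYC probes, which takes in the dim upstream probe, passed as higher in all 3 groups (0.26, 0.44 and 0.42). That dim probe was tested only because those groups, and not WT, were above background. Nothing is therefore drawn from this mean about MYC. R50 exceeded CDK2-/- by 0.21 ± 0.04 (adjusted p = 0.0169), a call that was lost when either array of either group was left out and in a fit of that slide alone.

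The other MYC probe is listed on a transcript that begins upstream of the usual start sites, and it read close to background. It was well above background on neither WT array but on both arrays of each other group, and it was tested only because of those groups. Its levels were -4.90 and -4.90 in WT, -4.37 and -4.20 in WT+NU6102, -3.83 and -4.00 in CDK2-/- and -4.08 and -4.24 in R50. The WT level is only a bound, so the fold is given as at least 1.53-fold higher with NU6102 (adjusted p = 0.00421), at least 1.99-fold in CDK2-/- (adjusted p = 0.00146) and at least 1.68-fold in R50 (adjusted p = 0.00634). These bounds set the group's mean against the higher of the probe's own WT signal and the lowest WT signal among probes well above background. A probe that is dim in WT alone enters the test only if another group is above background, so these differences from WT are given as bounds and nothing is drawn from them about the upstream transcript.

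MYCN, the neuronal paralogue of MYC, read between -7.49 and -6.23 over the 8 arrays and was not well above background on any of them. Of the other partners in the wider network, MYCL1 (L-MYC) was measurable on all 8 arrays. Its levels were -0.15 and -0.19 in WT, -1.44 and -1.48 in WT+NU6102, -0.86 and -0.99 in CDK2-/- and 0.13 and -0.13 in R50. MYCL1 therefore fell in the treated and in the knockout cells, by 1.29 ± 0.10 (adjusted p = 0.000376) and 0.75 ± 0.10 log2 units (adjusted p = 0.00347), and the R50 arrays stood at or above WT.

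MAX, the shared partner, rose with NU6102 on each of its 3 probes. The brightest gave levels of 2.86 and 2.87 in WT, 3.53 and 3.57 in WT+NU6102, 3.06 and 3.05 in CDK2-/- and 2.93 and 2.995 in R50. Both treated arrays lay above the 6 others. The log2 fold change was 0.69 ± 0.05 (1.61-fold, adjusted p = 0.000309). The coding probe printed above and the remaining probe, each listed for another transcript variant, rose by 0.35 ± 0.08 (adjusted p = 0.0206) and 0.43 ± 0.12 (adjusted p = 0.0306). Of all tested probes 23.6% were called higher and 21.1% lower in this comparison. In CDK2-/- cells the brightest probe was 0.19 ± 0.05 above WT (adjusted p = 0.0287), but the others gave -0.26 and -0.09 without passing, the mean of the 3 probes was -0.05, and the call was lost without either array of WT, CDK2-/- or WT+NU6102. In R50 no MAX probe passed.

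MLX, the partner that links the network to MLXIP and MLXIPL, also rose with NU6102 on both of its probes. Its brightest probe read 2.21 and 2.29 in WT, 2.67 and 2.80 in WT+NU6102, 2.12 and 2.23 in CDK2-/- and 2.26 and 2.31 in R50. The treated arrays did not overlap with any other group. The log2 fold change was 0.49 ± 0.07 (1.40-fold, adjusted p = 0.00341), and the junction probe printed above gave 0.65 ± 0.09 (adjusted p = 0.00251). In CDK2-/- and R50 neither probe passed, with confidence intervals of the brightest of -0.25 to 0.11 and -0.14 to 0.22.

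MLXIPL, a partner of MLX, went the other way with the drug. It read 0.95 and 0.98 in WT, 0.14 and -0.03 in WT+NU6102, 1.70 and 1.68 in CDK2-/- and 1.90 and 1.80 in R50. It lost 0.91 ± 0.08 with NU6102 (adjusted p = 0.000506) and exceeded WT by 0.73 ± 0.08 in the knockout (adjusted p = 0.00174) and by 0.89 ± 0.08 in R50 (adjusted p = 0.00181). MLXIP gave -0.19 with NU6102 without passing and was higher in CDK2-/- by 0.46 ± 0.09 (adjusted p = 0.0162). Of these 3 further partners, MYCL1 included, none rose and 2 fell with NU6102, 2 were higher and 1 lower in CDK2-/-, and 1 was higher in R50. The shares of all genes higher and lower were 28.9% and 24.2% with NU6102, 19.2% and 16.7% in CDK2-/-, and 12.2% and 15.4% in R50. With so few partners, nothing is drawn from these counts. Of 4 genes known as targets of the MLX and MondoA dimer, only ARRDC4, an arrestin-domain regulator of glucose uptake, and KLF10 could be tested. ARRDC4 was above WT by 1.01 with NU6102, 0.77 in CDK2-/- and 0.49 in R50, and KLF10 by 0.63 in CDK2-/- and in no other comparison with WT.

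Among the antagonists, MXI1 showed the widest spread. Its brightest probe read 1.59 and 1.48 in WT, 0.29 and 0.22 in WT+NU6102, 1.23 and 1.08 in CDK2-/- and 1.79 and 1.67 in R50. The order of the groups was WT+NU6102, CDK2-/-, WT and R50, and only WT and R50 did not differ beyond their spread. NU6102 lowered the level by 1.28 ± 0.08 log2 units (2.43-fold, adjusted p = 0.000264). The probe of transcript variant 1 printed above fell by 0.995 ± 0.09 (adjusted p = 0.000597), and the probe farthest downstream by 0.91 ± 0.08 (adjusted p = 0.000567), so all 3 MXI1 probes fell.

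In CDK2-/- and R50 cells only some MXI1 probes passed against WT, and the difference between probes was not tested. CDK2-/- was below WT by 0.38 ± 0.08 on the brightest probe (adjusted p = 0.0196) and by 0.33 ± 0.09 on the variant 1 probe (adjusted p = 0.0379), but the downstream probe, 1198 bases further along the same transcript, gave -0.01 ± 0.08 (adjusted p = 0.958). Of all tested probes 15.8% were called higher and 15.3% lower in this comparison. The call of the brightest probe was lost without WT replicate 1 (-0.32) or CDK2-/- replicate 2 (-0.30). In R50 that downstream probe was higher than in WT, with levels of 0.64 and 0.61 in WT and 1.35 and 1.28 in R50 (0.68 ± 0.08, adjusted p = 0.00458), while the others gave 0.20 and 0.23 without passing. Of all tested probes 9.78% were called higher and 12.8% lower between R50 and WT. Within a slide, R50 exceeded CDK2-/- on all 3 probes, by 0.58 ± 0.08, 0.56 ± 0.09 and 0.69 ± 0.08 (adjusted p = 0.00424, 0.00597 and 0.00209), where 15.2% of all tested probes were higher and 19.3% lower.

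**Figure D2:**
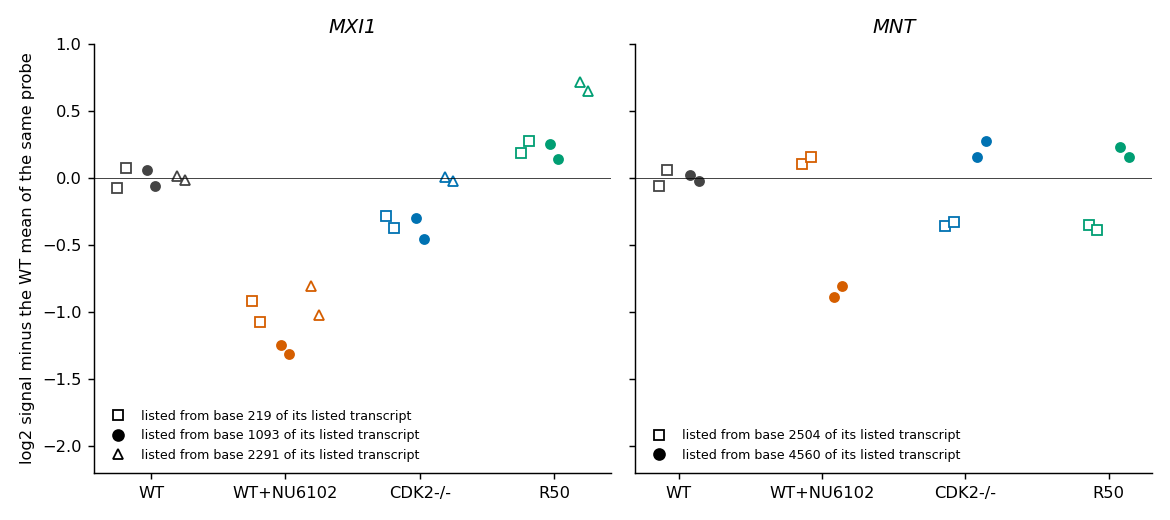
Log2 signal of each MXI1 and MNT probe on each array, less the WT mean of the same probe. Filled circles mark the brightest probe, open symbols the others, and the base is the start of the probe in its listed transcript. All MXI1 probes lie below 0 in WT+NU6102, while for MNT the brightest probe lies below 0 and the other just above it.

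MNT, the most broadly expressed MAX-binding repressor, fell with NU6102 on its brightest probe. The levels were 2.77 and 2.73 in WT, 1.86 and 1.94 in WT+NU6102, 2.91 and 3.03 in CDK2-/- and 2.98 and 2.91 in R50. The treated arrays lay below the 6 others, at a log2 fold change of -0.85 ± 0.06 (1.80-fold lower, adjusted p = 0.000412). The other MNT probe lies 2056 bases upstream, a distance that is the same in the transcript and in the genome, at chr17:2289632-2289691 of hg19 on the minus strand, and gave another picture. It read -1.64 and -1.52 in WT, -1.47 and -1.42 in WT+NU6102, -1.94 and -1.91 in CDK2-/- and -1.93 and -1.96 in R50. Its difference was 0.13 ± 0.06 with NU6102 (95% confidence interval -0.02 to 0.28, adjusted p = 0.134), and it was lower than WT by 0.34 ± 0.06 in CDK2-/- (adjusted p = 0.00996) and by 0.37 ± 0.06 in R50 (adjusted p = 0.0126). The brightest probe gave 0.22 and 0.20 in those groups without passing (adjusted p = 0.0541 and 0.0854). It was called in 3 of 16 alternatives in CDK2-/- and in 2 of 16 in R50. The MNT direction therefore depended on the probe in every comparison against WT, and the difference between probes was not tested.

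MXD3, which is linked to proliferating cells in S phase, was lower with NU6102. Its brightest probe read 3.51 and 3.76 in WT, 2.75 and 2.69 in WT+NU6102, 3.74 and 3.79 in CDK2-/- and 3.88 and 3.80 in R50. The log2 fold change was -0.91 ± 0.09 (1.88-fold lower, adjusted p = 0.000847), and no other comparison with WT passed. The other MXD3 probe was well above background on 7 of 8 arrays, 1 of 2 in WT+NU6102, and gave -0.12 ± 0.18 (adjusted p = 0.636). MXD3 was thus low in the treated cells on the bright probe, and the dim probe had too wide an interval (-0.56 to 0.33) to show a change of moderate size.

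MXD4, which is typical of resting and differentiating cells, differed in opposite directions in treated and in knockout or resistant cells. Its levels were -1.37 and -1.51 in WT, -1.85 and -1.94 in WT+NU6102, -0.94 and -0.75 in CDK2-/- and -0.65 and -0.76 in R50. The 4 arrays of CDK2-/- and R50 lay above WT and the treated arrays below it. The part above WT crosses slides, so slide and group cannot be told apart in it. R50 and CDK2-/-, on the same slide, differed by 0.14 ± 0.09 (adjusted p = 0.309). Relative to WT, MXD4 gained 0.60 ± 0.09 in CDK2-/- (1.51-fold, adjusted p = 0.0069) and 0.73 ± 0.09 in R50 (1.66-fold, adjusted p = 0.00601), and its other probe was also higher, by 0.37 ± 0.07 (adjusted p = 0.011) and 0.29 ± 0.07 (adjusted p = 0.0318). With NU6102 it was lower by 0.45 ± 0.09 (adjusted p = 0.0112), but the other probe gave -0.19 ± 0.07 (adjusted p = 0.0614), and the call was lost without WT replicate 1 (-0.39) or WT+NU6102 replicate 2 (-0.41).

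MXD1, the founding MAD repressor and a gene of differentiating epithelium, was higher in the knockout and resistant lines. Its brightest probe read -2.27 and -2.23 in WT, -2.25 and -2.50 in WT+NU6102, -1.33 and -1.60 in CDK2-/- and -1.57 and -1.68 in R50. The CDK2-/- and R50 arrays lay above all WT and treated arrays. That split is also the split between the slides, so slide and group cannot be told apart for MXD1. Between R50 and CDK2-/-, on the same slide, the difference was -0.16 ± 0.12 (adjusted p = 0.358). The difference from WT was 0.79 ± 0.12 in CDK2-/- (1.73-fold, adjusted p = 0.00691) and 0.62 ± 0.12 in R50 (1.54-fold, adjusted p = 0.0212). The R50 call was lost without either array of WT or R50, where the difference lay between 0.57 and 0.68. The other MXD1 probe, near the start of the transcript, gave 0.17 ± 0.10 (adjusted p = 0.284) and 0.38 ± 0.10 (adjusted p = 0.0506). NU6102 gave -0.12 ± 0.12 (adjusted p = 0.469).

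MGA, the largest protein of the network and the scaffold of PRC1.6, stood highest in CDK2-/- cells. Its levels were 1.596 and 1.56 in WT, 1.73 and 1.71 in WT+NU6102, 1.90 and 1.88 in CDK2-/- and 1.58 and 1.56 in R50. CDK2-/- exceeded WT by 0.31 ± 0.04 (adjusted p = 0.00519), and the other MGA probe, at chr15:42021388-42021447 of hg19, gave 0.31 ± 0.08 (adjusted p = 0.0405). R50 was below CDK2-/- on both probes, by 0.32 ± 0.04 (adjusted p = 0.004) and 0.44 ± 0.08 (adjusted p = 0.0127). The rise with NU6102 was 0.14 ± 0.04 (adjusted p = 0.048), was not seen on the other probe (0.05 ± 0.08, adjusted p = 0.699) and passed under 4 of 17 alternatives, none of which left out an array.

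The cross-slide comparisons with the treated cells were the broadest. Against WT+NU6102, 6 members were higher and 3 lower in R50, with 26.2% and 33.9% of all genes and 60.0% in either direction. In CDK2-/- 6 were higher and 2 lower than in WT+NU6102, with 29.0% and 31.5% of all genes and 60.5% in either direction. R50 exceeded the treated cells by 1.48 ± 0.08 for MXI1, 1.19 ± 0.09 for MXD4, 1.12 ± 0.09 for MXD3, 1.05 ± 0.06 for MNT and 0.75 ± 0.12 for MXD1, and lay below them by 0.59 ± 0.05 for MAX and 0.45 ± 0.07 for MLX. Adjusted p lay between 8.49e-05 and 0.00387 for these genes. These values and counts are of the brightest probes, and the other MNT probe was called in the opposite direction. Against WT+NU6102 it gave -0.50 ± 0.06 in R50 (adjusted p = 0.00111) and -0.47 ± 0.06 in CDK2-/- (adjusted p = 0.00138). The MNT direction therefore depended on the probe here too.

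**Figure D3:**
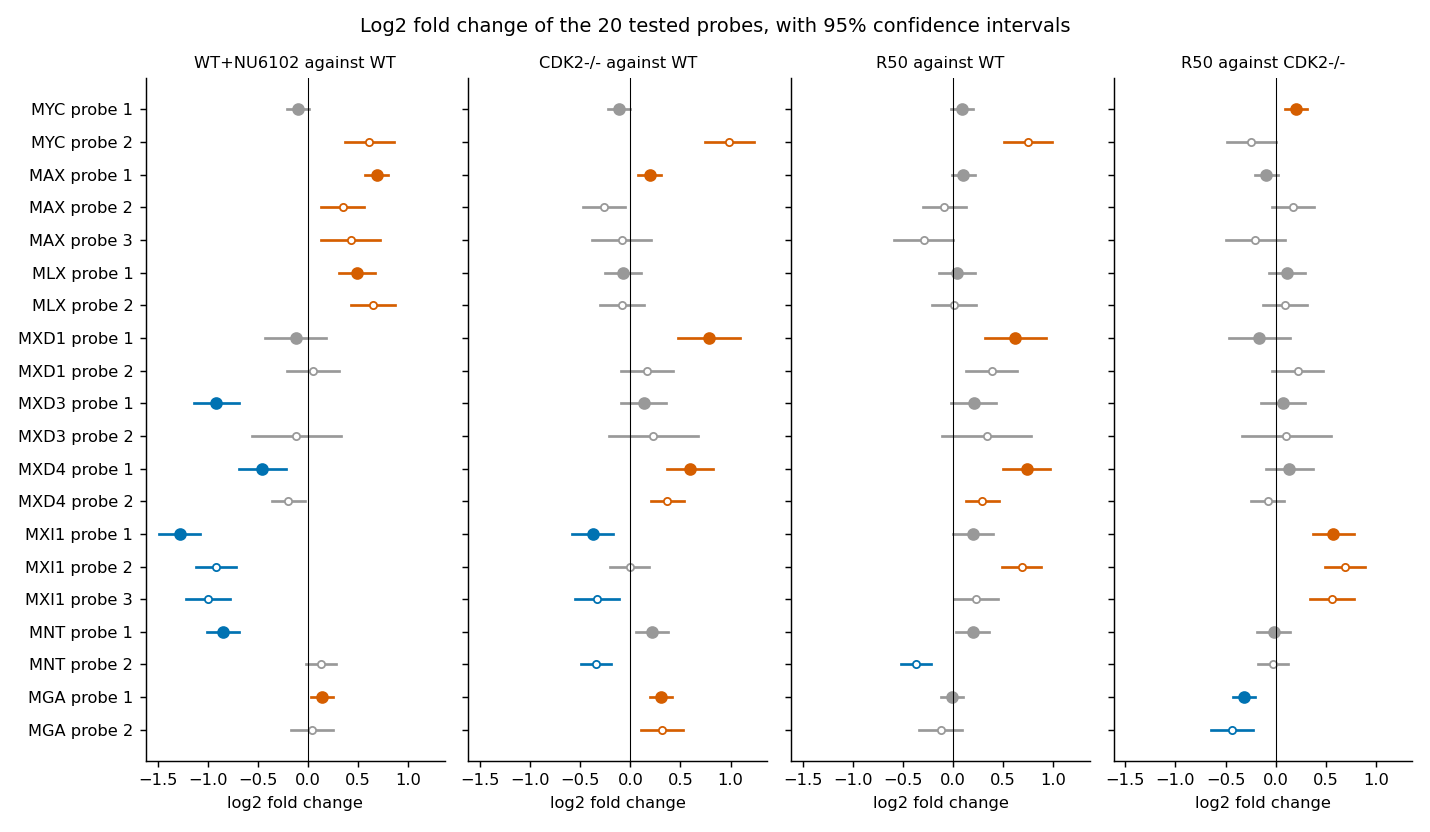
Log2 fold change of the 20 tested probes in 4 comparisons, with 95% confidence intervals. Probe 1 of each gene is the brightest (filled), orange marks a probe called higher, blue a probe called lower and grey a probe that did not pass. MAX, MLX and MXI1 move together on all their probes with NU6102, whereas the probes of MNT part in the 3 comparisons against WT.

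Genes that MYC is known to activate were read next, from 2 lists. Of 28 genes of ribosome biogenesis, 20 rose (71.4%) and none fell with NU6102, against 28.9% and 24.2% of all genes, with a median log2 fold change of 0.39 against 0.04 over all named genes. The largest rises were in NOP16 (0.80 ± 0.06, adjusted p = 0.000372), a nucleolar factor, BOP1 (0.65 ± 0.05, adjusted p = 0.000532), which processes large-subunit RNA, and POLR1B (0.60 ± 0.05, adjusted p = 0.000476), a core subunit of RNA polymerase I. The NOP16 levels were 3.71 and 3.72 in WT and 4.49 and 4.55 in WT+NU6102. Of 23 tested genes of metabolism and growth, 16 rose (69.6%) and none fell, with a median of 0.30. ODC1 rose from 5.83 and 5.87 to 7.24 and 7.25 (1.40 ± 0.05, adjusted p = 8.38e-05), CDC25A, a phosphatase that activates CDKs, by 1.01 ± 0.06 (adjusted p = 0.000266) and SRM, spermidine synthase, by 0.99 ± 0.06 (adjusted p = 0.000199). Leaving out any array kept 16 to 18 and 14 to 15 genes called higher.

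In R50 the same lists read lower than in WT. Of the ribosome genes 14 fell and none rose, against 15.4% and 12.2% of all genes, with a median of -0.20 against -0.04 over all named genes, and all 28 had a value below 0. PPAN fell from 0.23 and 0.38 to -0.19 and -0.13 (-0.47 ± 0.06, adjusted p = 0.00777), GRWD1 by 0.38 ± 0.05 (adjusted p = 0.00475) and MRTO4 by 0.38 ± 0.07 (adjusted p = 0.0189), all assembly factors of the large subunit. The changes were small and the count rested on every array, since it was 3 to 7 when any 1 was left out and 6 with quantile normalization. Of the metabolism genes 9 fell and 1 rose (median -0.13), and 3 to 6 were called lower without any 1 array. TERT, the telomerase subunit, fell by 0.46 ± 0.05 (adjusted p = 0.00341) and CDC25A by 0.43 ± 0.06 (adjusted p = 0.00978), while PKM2, a pyruvate kinase, rose by 0.35 ± 0.06 (adjusted p = 0.0161).

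In CDK2-/- cells 5 ribosome genes were higher and 3 lower than in WT (17.9% and 10.7%, median 0.03), and 5 metabolism genes higher and 2 lower (21.7% and 8.70%, median -0.0013). These shares are near or below the 19.2% and 16.7% over all genes, so they are no result about the lists. UBTF, a polymerase I cofactor, rose by 0.70 ± 0.08 (adjusted p = 0.00221) and MYBBP1A, a nucleolar binding protein, fell by 0.66 ± 0.07 (adjusted p = 0.00165). Within a slide, R50 was below CDK2-/- for 14 of 28 ribosome genes and above for 1 (median -0.21), and below for 11 of 23 metabolism genes and above for 2 (median -0.13), against 23.7% and 17.2% of all genes. ODC1 (-0.60 ± 0.05, adjusted p = 0.000662), PAICS, of purine synthesis (-0.60 ± 0.04, adjusted p = 0.000497), CDC25A (-0.73 ± 0.06, adjusted p = 0.000896) and NOP56 (-0.59 ± 0.05, adjusted p = 0.00068) were among them. Epithelial markers also differed between these groups. Of the 6 tested, KRT8 (0.65), KRT18 (0.46) and EPCAM (0.40) were higher and CDH1 (-0.37) and KRT19 (-0.30) lower with NU6102. In CDK2-/- KRT19 (0.64), KRT8 (0.32) and CDH1 (0.26) were higher than in WT and none was lower. In R50 4 were higher than in WT (0.60 to 0.83) and none was lower, and 3 were higher than in CDK2-/-. Of all genes 28.9% were higher and 24.2% lower with NU6102, and 19.2% and 16.7% in CDK2-/-. The shares were 12.2% and 15.4% in R50 against WT, and 17.2% and 23.7% against CDK2-/-. The part of these markers in the list values was not tested.

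**Figure D4:**
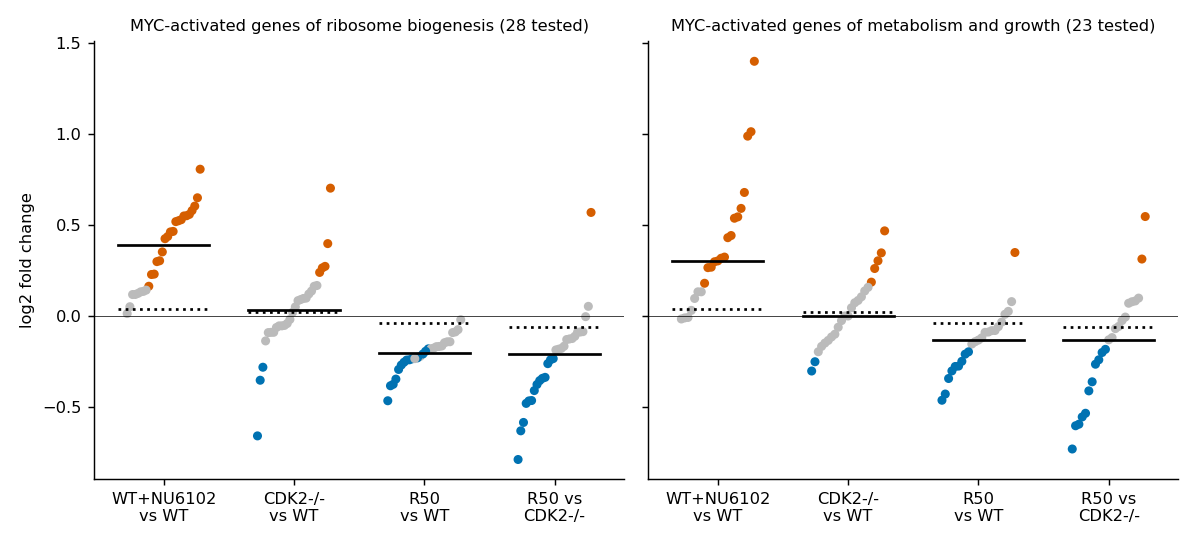
Log2 fold change of each tested MYC-activated gene in 4 comparisons, with ribosome biogenesis on the left and metabolism and growth on the right. Points are genes in order of value, orange called higher, blue called lower and grey neither, the solid line is the list median and the dotted line the median of all named genes. The list medians with NU6102 are 0.39 and 0.30, and those of R50 against WT are -0.20 and -0.13.

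Of 12 tested genes that MYC is known to repress, 2 were higher and 3 lower with NU6102, 3 higher and 3 lower in CDK2-/-, and 4 higher and none lower in R50. The lower counts with NU6102 and in CDK2-/- each include CDKN2B. It was well above background on only 1 of the 4 arrays compared and was tested only because of R50. Over all genes 28.9% and 24.2%, 19.2% and 16.7%, and 12.2% and 15.4% were higher and lower in these comparisons. NDRG1, a stress and differentiation gene, fell from 2.32 and 2.21 to 1.19 and 1.18 with NU6102 (-1.08 ± 0.05, adjusted p = 0.000162) and was higher in R50 at 2.92 and 2.94 (0.66 ± 0.05, adjusted p = 0.0017). CDKN1B, the CDK inhibitor p27, fell with NU6102 by 0.55 ± 0.07 (adjusted p = 0.00209) and in CDK2-/- by 0.51 ± 0.07 (adjusted p = 0.00472). CDKN1A, the CDK inhibitor p21, rose in R50 by 0.32 ± 0.08 (adjusted p = 0.0435) and in CDK2-/- by 0.33 ± 0.08 (adjusted p = 0.0312). BTG2, an antiproliferative gene, rose with NU6102 by 0.57 ± 0.07 (adjusted p = 0.00151). It was also higher in CDK2-/- by 0.32 ± 0.07 (adjusted p = 0.0178) and in R50 by 0.45 ± 0.07 (adjusted p = 0.00958).

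The cofactors that MYC and its antagonists recruit were read from 2 lists. Of 10 corepressor genes, 4 fell and none rose with NU6102, against 24.2% and 28.9% of all genes, so that fewer were called in either direction than the 53.1% overall. SUDS3, a SIN3 subunit, fell from 0.83 and 0.76 to -0.27 and -0.21 (-1.03 ± 0.07, adjusted p = 0.000262), SAP18 by 0.64 ± 0.08 (adjusted p = 0.00183) and the deacetylase HDAC1 by 0.32 ± 0.04 (adjusted p = 0.00228). In CDK2-/- and in R50 2 corepressor genes were higher, with 2 lower in CDK2-/- and 1 lower in R50, the last being SAP30 (-0.47 ± 0.07, adjusted p = 0.00817). Of all genes 19.2% were higher and 16.7% lower in CDK2-/-, and 12.2% and 15.4% in R50, so these counts are near the background. Of 14 MYC cofactors 5 rose (35.7%) and 1 fell (7.14%) with NU6102, against 28.9% and 24.2% of all genes. The share that rose is near the background and the share that fell is below it. The largest rises were in MYCBP (0.60 ± 0.05, adjusted p = 0.000535) and ZBTB17, the MIZ1 partner through which MYC represses genes (0.60 ± 0.07, adjusted p = 0.00158). In R50 none rose, against 12.2% of all genes, and MYCBP fell by 0.24 ± 0.05 log2 units (adjusted p = 0.0276).

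Regulators of MYC protein stability were tested for 10 of 11 genes on the array. With NU6102 3 rose and 1 fell, close to or below the 28.9% and 24.2% over all genes, so that the count says nothing particular of these regulators. Those that rose were GSK3B (0.85 ± 0.05, adjusted p = 0.000281) and FBXW7 (0.48 ± 0.08, adjusted p = 0.00415), the kinase and ligase that mark MYC for degradation, and HUWE1 (0.29 ± 0.06, adjusted p = 0.0139), another ligase. In CDK2-/- 3 rose and 3 fell, against 19.2% and 16.7% of all genes. In R50 none rose and 2 fell, SKP2, the F-box ligase of p27 and MYC (-0.36 ± 0.04, adjusted p = 0.00543), and the kinase AURKA (-0.28 ± 0.06, adjusted p = 0.0229). Of all genes 12.2% were higher and 15.4% lower in R50. These are transcript levels, and MYC protein was not measured on the arrays.

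Of the 10 partners of MGA in PRC1.6, 3 rose and 4 fell with NU6102, against 28.9% and 24.2% of all genes, and 7 in 10 genes called is not far from the overall 53.1%. RING1, a ubiquitin ligase subunit, fell by 0.83 ± 0.06 (adjusted p = 0.00035) and YAF2 by 0.63 ± 0.07 (adjusted p = 0.00102), while E2F6, a DNA-binding subunit, rose by 0.55 ± 0.05 (adjusted p = 0.000572). YAF2 was higher in CDK2-/- by 0.85 ± 0.07 (adjusted p = 0.000671), the only rise there beside 1 fall, and 3 partners fell in R50. Of all genes 19.2% were higher and 16.7% lower in CDK2-/-, and 12.2% and 15.4% in R50. Only 5 of 11 germline genes under PRC1.6 control could be tested. Of these only TDRKH, a piRNA pathway gene, was called against WT. Its levels were -1.74 and -2.31 in WT, -3.91 and -4.10 in WT+NU6102, -2.76 and -2.82 in CDK2-/- and -1.89 and -1.97 in R50. It fell by 1.98 ± 0.19 with NU6102 (adjusted p = 0.000769) and fell by 0.76 ± 0.19 in CDK2-/- (adjusted p = 0.0306), and R50 did not differ from WT beyond the spread.

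The genes whose profile over the 8 arrays lay nearest to a member were sought among 13916 genes, by the root mean square difference of levels centred on each gene's own mean. Nearest to MYC were RAPGEF1, RAPGEF2 and C11orf2 (distance 0.03 for each). Nearest to MXI1 were SUSD3, CBLN3 and FXYD6 (0.04 to 0.06), and nearest to MNT were PTP4A3, CERS4 and MOSPD3 (0.05 to 0.06). MXD3 lay nearest to MSMO1, RGL1 and CERS4 (0.05 to 0.07), so CERS4 was near both MNT and MXD3. MXD4 had the most distant neighbours, RXRA, SMARCA1 and MST1 (0.09 each). A flat profile such as that of MYC has many near neighbours, and the distances describe these 8 arrays only.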

How the data were processed

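The authors hybridized Cy3-labelled RNA to 1-colour Agilent arrays. Per spot they deposited a background-subtracted intensity, made by Agilent Feature Extraction (version 11.5.1.1) and not scaled between arrays. The deposited series matrix holds log2 values that the authors made with GeneSpring. They equal the scanner log2 signal less 1 constant per array and each probe's median (99.8% of values within 0.05), and served as an alternative.

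R 4.3.3 with data.table (version 1.17.8) read the scanner files, leaving out controls and outlier spots. Log2 signals were reduced by the array's 75th percentile and averaged over the spots of each probe. A probe was tested if at least 1 group had it well above background on its 2 arrays, which held for 28677 of 50599. Limma 3.58.1 fitted the 4 groups together, two-sided, with Benjamini-Hochberg adjustment. This scaling would hide a change shared by all transcripts. In simulated data of R50 against WT, with 200 probes changed by 1 log2 unit, 141 were recovered, with 9 false calls among 28677 probes. Figures used matplotlib 3.10.9.

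The members are defined by symbol and not by values, but they, the gene lists, tests and named genes were chosen with earlier results of these data known. Named are all members, from each list the 3 called genes of largest change in a comparison that were well above background on its arrays, and the 3 nearest profiles of MYC and of members past the F-test that span at least 1 log2 unit. A list gene among these is not reported here. Replicate numbers do not pair samples (correlations of deviations between -0.03 and 0.05). The labels call the duplicates biological replicates without naming separate cultures, so p-values measure the spread between these samples. Alternatives were normexp (offset 50), quantile normalization, other filters on dim probes, the authors' values, a trended prior, a replicate block, fits of a single slide, the mean of a gene's probes, a minimum fold, the methods' ANOVA and t-test, and each array left out. Those for list counts were added after seeing the data. The number of arrays limits precision.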

Additional observations from a re-analysis of the deposited data

How the results depend on the processing

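Of 594 log2 fold changes of the 9 members under an alternative, 531 kept their direction and side of the threshold, 36 lost the call, 10 gained it and 17 changed sign. No cause was tested. The F-test count of 5 became 0 with no filter, 8 with a trended prior, 2 with the mean of a gene's probes, 1 with the methods' ANOVA and 0 to 1 without any 1 array. The replicate block gave 1 for the F-test and 6, 5, 2 and 3 for WT+NU6102, CDK2-/- and R50 against WT and R50 against CDK2-/-, and it ended the call of MGA with NU6102 (adjusted p = 0.0595) and no other pairwise call of a member in these comparisons. A minimum log2 fold change of 1 left 1 of 7, 0 of 5, 0 of 2 and 0 of 3 calls in the same order, 4 of 9 for R50 and 3 of 8 for CDK2-/- against WT+NU6102. The methods' t-test called 4 in R50 against WT unadjusted, and after adjustment 3, 1 and 0 against WT. With no filter the counts were 3 in CDK2-/- and 1 in R50, and the mean of probes gave 4 in R50. Without any 1 array the counts against WT ranged from 5 to 6, 3 to 5 and 1 to 2 (R50 was 1 without either WT or either R50 array, CDK2-/- 3 without WT replicate 1 or CDK2-/- replicate 2), and from 2 to 3 for R50 against CDK2-/-. Ribosome genes called lower in R50 numbered 6 with quantile normalization, 2 with no filter and 3 to 7 without any 1 array, and metabolism genes 2 with no filter and 3 to 6. With the mean of probes the sign turned for MYC with NU6102 (0.26), in CDK2-/- (0.44) and between R50 and CDK2-/- (-0.0175), for MAX in CDK2-/- (-0.052) and R50 (-0.0914), for MNT in CDK2-/- (-0.0634) and R50 (-0.0856), and for MXD1 between R50 and CDK2-/- (0.0282). None of the other sign changes concerned a called value. They were MXD1 with NU6102 without WT+NU6102 replicate 2 (0.0043), MLX in R50 without WT replicate 1 (-0.0022), MGA in R50 with normexp (0.001), quantile normalization (0.017) and without WT replicate 1 (0.0053), and MNT between R50 and CDK2-/- with normexp (0.0147), quantile normalization (0.0127), without CDK2-/- replicate 2 (0.0379) and without R50 replicate 2 (0.017). Over the 8 fits that each leave out 1 array, these ranged from -0.248 to 0.0043 for MXD1, -0.0022 to 0.0782 for MLX, -0.0281 to 0.0053 for MGA and -0.0788 to 0.0379 for MNT. Signal near background limits the MYCN probe, the upstream MYC probe in WT and the dim MXD3 probe.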
